A study of Homo sapiens with 10 samples.

Results

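The 78 genes described here carry the symbols of the mitochondrial ribosomal proteins. They were taken by name, as every protein-coding gene whose symbol is MRPL or MRPS followed by a number and at most 1 letter, and each of the 78 was listed in all 3 deposited tables, out of 18034 genes in the series. By the names now used for the ribosome's structure, 26 encode proteins of the small subunit and 51 proteins of the large subunit. Among the 51 are MRPS18A and MRPS30, which keep a small-subunit symbol but sit in the large subunit, and the remaining gene, MRPS36, is now known as KGD4, a subunit of the oxoglutarate dehydrogenase complex. RNA was measured by mRNA sequencing in the established colorectal carcinoma line HCT116, of human origin, in 10 libraries that form 5 groups of 2. DMSO and EPZ cells carry no knockdown and received the solvent or the DOT1L inhibitor EPZ-5676, with 10 µM for 72 h given for the inhibitor. EV, WT and K56A cells all carry the shRNA against CDK9 (shCDK9), received no treatment, and are told apart by what was put back: wild-type CDK9 in WT and CDK9 with the change K56A in K56A. EV is not spelled out in the labels, no line without the shRNA stands beside it, and the labels do not say whether a line is a clone or a pool, or whether replicates are separate cultures. The p-values therefore measure the spread between these libraries, which may be technical.

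Mitochondria keep a small genome of their own, and a ribosome of their own translates its messenger RNAs into subunits of the respiratory chain and of ATP synthase. The 2 ribosomal RNAs of that ribosome are encoded in the mitochondrial genome, while its proteins are encoded in the nucleus, made in the cytosol and imported. Some of these proteins descend from proteins of the bacterial ribosome, and others are found only in mitochondria. By structure name, 46 members fall in the class with a bacterial relative and 31 in the class specific to mitochondria. These classes, used below, were read from the name alone, so they do not show descent for each member.

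Across the series, CDK9 stood at 37.6 to 43.9 FPKM (fragments per kilobase of transcript, scaled to library size) in the inhibitor experiment, at 16.4 and 19.4 for EV, 3060 and 2976 for WT, then 2611 and 2500 for K56A. DOT1L stood at 10.4 to 12.6 FPKM in the inhibitor experiment, at 324 and 343 for EV, 578 and 568 for WT, then 733 and 703 for K56A, so the knockdown lines differ in DOT1L as well as in CDK9. Of 8 markers of colon epithelium, 6 were detected in these libraries, with EPCAM at 139 FPKM or more, while CDX1 and VIL1 had no listed transcript in any table. Of 6 fibroblast markers only COL1A1 was detected, and the summed level of 5 leukocyte markers reached at most 0.390 FPKM. In bulk RNA, fewer cells of a kind and less RNA per cell cannot be told apart.

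Each of the 78 genes was expressed in each of the 10 libraries, at no less than 6.57 FPKM, and 73 stayed at 10 FPKM or more throughout. FPKM is scaled per length, so levels of different genes can be set beside each other. Mean levels over the 10 libraries ran from 7.29 FPKM for MRPL50 to 88.5 FPKM for MRPL38, a 12.1-fold range. The set is nonetheless compact: the median was 31.2 FPKM, the interquartile range was 23.3 to 41.9, and 58 of 78 had a mean between 20 and 60.

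**Figure D1:**
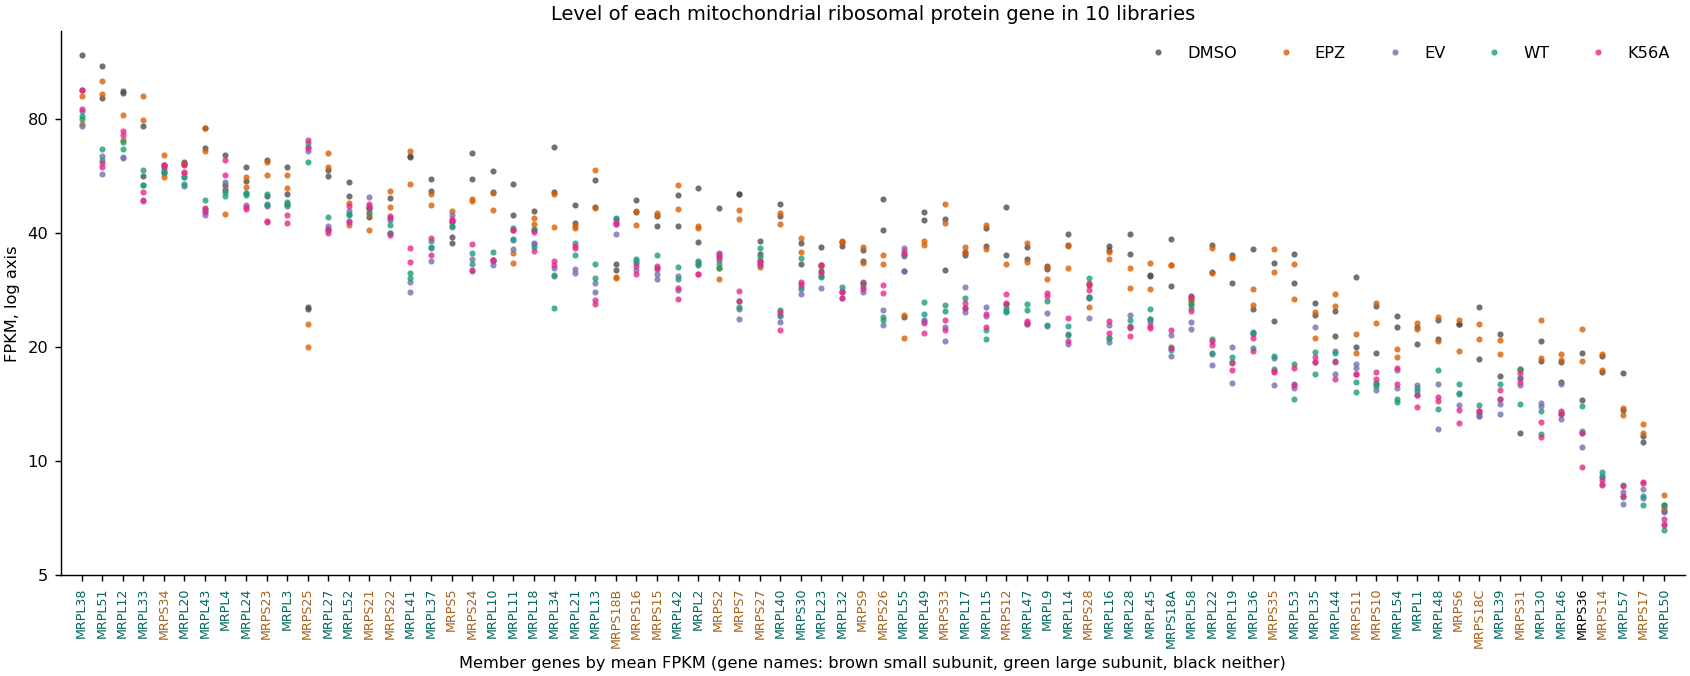
Level of each of the 78 genes (FPKM, log axis) in the 10 libraries, each point a library, coloured by group, genes ordered by their mean. The range runs from 6.57 to 118 FPKM, and the inhibitor and knockdown tables were normalized separately.

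At the top stood MRPL38, a mitochondria-specific protein of the large subunit's central protuberance (ENSG00000204316, chromosome 17, 75898644 to 75905093, minus strand, GRCh38). Its FPKM values by replicate were 118 and 95.4 (DMSO), 92.1 and 77.6 (EPZ), 76.8 and 83.7 (EV), 81.3 and 79.96 (WT), then 95.3 and 84.7 (K56A). The DMSO replicates alone were further apart than the 4 libraries of EV and WT. MRPL51 came next, a mitochondria-specific large-subunit protein, with FPKM values of 90.6 and 110.2 (DMSO), 92.8 and 100.5 (EPZ), 57.3 and 63.7 (EV), 62.4 and 66.4 (WT), then 59.5 and 61.2 (K56A). The others of the top 5 were MRPL12, the stalk protein that recruits translation factors (mean 74.9 FPKM), MRPL33 (61.9) and the mitochondria-specific small-subunit protein MRPS34 (59.5). The summed level of MRPS34 hardly varied between libraries, from 56 FPKM in EPZ replicate 2 to 64.3 in EPZ replicate 1. Its makeup varied more, with 35.5% of that level outside coding transcripts in DMSO replicate 1 and 57% in WT replicate 1.

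At the bottom stood MRPL50, a mitochondria-specific large-subunit protein, with FPKM values of 7.39 and 7.67 (DMSO), 7.51 and 8.15 (EPZ), 7.33 and 6.81 (EV), 7.69 and 6.57 (WT), then 7.04 and 6.79 (K56A). Within each experiment the groups overlapped, and MRPL50 was the lowest member in 9 of the 10 libraries. Next lowest were MRPS17 (mean 9.71 FPKM), a small-subunit protein of bacterial descent, MRPL57 (10.7), MRPS14 (12.7), another small-subunit protein of bacterial descent, and the reassigned MRPS36 (14.5). These are RNA levels, and the proteins were not measured here.

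The members kept much the same order in each group. Across the 78 genes, Spearman's rho of group means was 0.951 between DMSO and EPZ, 0.988 between EV and WT, 0.989 between EV and K56A, and 0.833 between DMSO and EV, given as descriptions because genes are not independent. The median SD between replicates on the log2 scale was 0.12 in DMSO, 0.09 in EPZ, 0.06 in EV, 0.05 in WT and 0.04 in K56A, beside 0.14, 0.10, 0.07, 0.06 and 0.06 over all genes tested. The inhibitor experiment, and DMSO above all, was therefore the less precise of the pair.

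Promoter sequences are shown for 6 members: 4 of the 5 with the highest level, MRPS26, which had small p-values in 3 comparisons described below, and MRPS17, which has the second lowest level. Each runs 5′ to 3′ from 120 bases before to 30 bases after the transcription start (RefSeq, GRCh38.p14). Capitals mark letters of the motifs searched, on either strand: CCGGAAG (ETS factors such as GABPA, reading CTTCCGG on the other strand), AAGATGGC (YY1), GCATGCGC (NRF1) and CACGTG (E-box, bound by MYC). These factors are known regulators of nuclear genes for mitochondria.
MRPL38, chr17:75904855-75905004, minus strand: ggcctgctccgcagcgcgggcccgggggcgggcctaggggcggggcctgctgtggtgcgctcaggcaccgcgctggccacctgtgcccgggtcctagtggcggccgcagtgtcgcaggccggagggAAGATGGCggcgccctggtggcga
MRPL51, chr12:6493233-6493382, minus strand: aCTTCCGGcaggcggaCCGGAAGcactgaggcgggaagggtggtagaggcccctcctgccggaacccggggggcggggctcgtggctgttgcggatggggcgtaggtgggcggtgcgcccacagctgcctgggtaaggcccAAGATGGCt
MRPL12, chr17:81703247-81703396, plus strand: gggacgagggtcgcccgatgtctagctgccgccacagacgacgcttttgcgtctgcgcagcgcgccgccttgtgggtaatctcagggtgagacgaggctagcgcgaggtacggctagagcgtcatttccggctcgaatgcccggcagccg
MRPS34, chr16:1773105-1773254, minus strand: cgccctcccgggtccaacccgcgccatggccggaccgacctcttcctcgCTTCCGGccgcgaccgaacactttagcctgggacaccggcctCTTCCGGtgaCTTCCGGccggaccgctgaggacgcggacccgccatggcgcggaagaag
MRPS26, chr20:3045932-3046081, plus strand: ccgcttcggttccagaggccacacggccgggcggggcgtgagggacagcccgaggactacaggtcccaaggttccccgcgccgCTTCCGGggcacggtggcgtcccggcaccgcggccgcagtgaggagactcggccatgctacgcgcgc
MRPS17, chr7:55951757-55951906, plus strand: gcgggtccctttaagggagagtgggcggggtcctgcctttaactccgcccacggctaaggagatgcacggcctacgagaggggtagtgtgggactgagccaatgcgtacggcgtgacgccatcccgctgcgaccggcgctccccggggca

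The MRPL38 window holds a YY1 match just after the start, and the MRPL51 window holds 2 ETS matches and a YY1 match after the start. MRPS34 has 3 ETS matches before its start, and MRPS26 has 1. MRPL12 and MRPS17 hold none of these letter strings, although the former lies near the top of the order and the latter near the bottom. Over the 69 members found in the RefSeq promoter table (250 bases before to 50 after the start, any listed start), 30 held the ETS string (43.5%, against 21.5% of 10792 protein-coding genes and 12.2% of all 27305 genes). The YY1 string stood in 21 (30.4%, against 6.20% of the coding genes and 3.52% of all genes). NRF1 matches were found in 6 (8.70%, against 6.09% and 3.68%) and E-box matches in 9 (13%, against 12.5% and 8.77%). The ETS and YY1 strings can share the letters AAG, and the E-box reads the same on both strands.

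The YY1 string holds the letters ATG, those of a start codon. Of the 21 members, 16 had it after the transcription start (76.2%), and in 13 its ATG is an annotated start codon (61.9%, GENCODE annotation of GRCh38). Among the 669 coding genes with the string, 64% had it after the start and 39.3% at a start codon. In MRPL38, MRPL50, MRPS18A and MRPS30 it sits at the start codon, and in MRPL51 it lies after the start but at no annotated start codon. A match is a string of letters and was not tested for binding.

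The arrangement of the genes was also described, without a test. They lie on 21 chromosomes, with no more than 8 on 1 of them, chromosome 17. Of the 78, 26 (33.3%) start within 1000 bases of another protein-coding gene's start on the opposite strand, head to head, against 15.6% of the 13582 coding genes in the tables. One such pair consists of 2 members, MRPL46 and MRPS11, whose starts lie 318 bases apart. MRPS12 is paired with SARS2, the mitochondrial seryl-tRNA synthetase, at 181 bases, and MRPL43 with TWNK, the helicase of mitochondrial DNA, at 21 bases. The transcripts are short, with a median of 1095 bases against 1941 over the genes tested, and of average GC content (49.8% in both).

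Summed over the 78 genes, the FPKM values were 3148 and 3127 (DMSO), 2991 and 2981 (EPZ), 2286 and 2348 (EV), 2362 and 2387 (WT), then 2383 and 2365 (K56A). Within each experiment the sums differed little, and both EPZ sums lay below both DMSO sums. The small subunit's 26 genes gave 928 and 938 FPKM with DMSO against 894 and 899 with EPZ, and the large subunit's 51 genes gave 2206 and 2170 with DMSO against 2079 and 2060 with EPZ. Among the knockdown lines the small-subunit sums ran from 769 FPKM in EV replicate 1 to 790 in K56A replicate 1, and the large-subunit sums from 1505 in EV replicate 1 to 1588 in WT replicate 2.

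**Figure D2:**
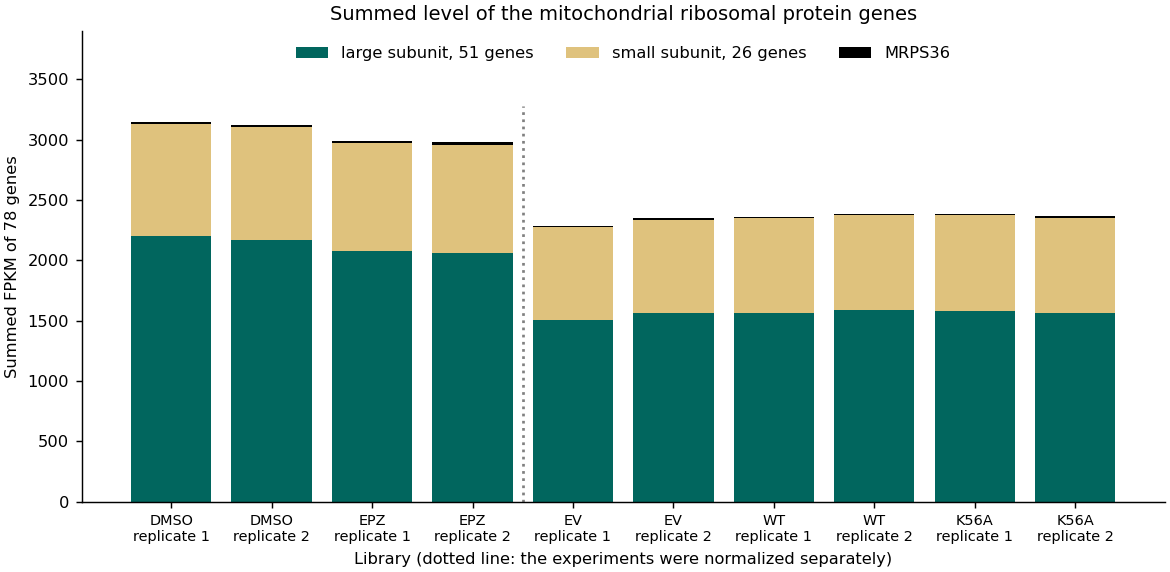
Summed FPKM of the 78 genes in each library, stacked by subunit, with the inhibitor experiment to the left of the dotted line and the knockdown experiment to its right. The sums are 2981 to 3148 FPKM on the left and 2286 to 2387 on the right, and the tables on each side were normalized separately.

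Because the inhibitor and knockdown tables were scaled apart from each other, no test was made between them. Side by side, the median ratio of EV to DMSO was 0.715 over the members and 0.933 over 11442 genes, and 52 of 78 members had all 6 knockdown libraries below all 4 inhibitor libraries. Among the 10603 genes tested in both fits, 38.8% had this order, beside 49 of the 72 members among them (68.1%). The share of all FPKM held by genes of the mitochondrial genome also differed, at 17.3% to 19.3% in the inhibitor libraries and 25.3% to 27.8% in the knockdown libraries. As a percentage of the FPKM of nuclear genes, the members summed to 0.632% to 0.663% in the former and 0.565% to 0.582% in the latter, so the gap was smaller on that scale but the ranges remained apart. In 2 members all knockdown libraries lay above all inhibitor libraries (2.78% of the 72, against 28.8% of the 10603 genes). One was MRPS25, a mitochondria-specific small-subunit protein, with FPKM values of 25.5 and 25.2 (DMSO), 23 and 19.98 (EPZ), 67.5 and 65.7 (EV), 61.5 and 69 (WT), then 67 and 70.5 (K56A), a ratio of EV to DMSO of 2.63. The other was MRPS18B, a small-subunit protein, with 30.4 to 33.1 FPKM in the inhibitor libraries and 39.7 to 43.7 in the knockdown libraries. The lowest ratio, 0.453, was that of MRPL41.

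The first comparison asked whether 72 h of DOT1L inhibition changed the members. DOT1L places methyl groups on lysine 79 of histone H3 in transcribed genes. None of the members passed: of 78 tested, 0 rose and 0 fell, beside 1 of 13130 genes overall (0.00762% called, limma, adjusted p under 0.05). An unadjusted p under 0.05 was found for 6 members (7.69%), against 5.83% of all genes. The median log2 fold change was -0.04, against 0.00 over all genes, with single members between -0.50 and 0.37. The groups did not overlap for 33 of 78 members (42.3%, against 37.4% of all genes), with EPZ lower in 24 (30.8%, against 18.8%) and higher in 9 (11.5%, against 18.6%).

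MRPL11, which lies at the base of the stalk where translation factors bind, had the smallest p-value. It read 53.8 and 44.5 FPKM with DMSO against 35.3 and 33.4 with EPZ, without overlap. The log2 fold change was -0.50 ± 0.13 (SE, n = 2 each) and did not pass (adjusted p = 0.756). MRPS26, a mitochondria-specific small-subunit protein, read 49.1 and 40.7 FPKM with DMSO against 34.9 and 33.2 with EPZ (-0.39 ± 0.13, adjusted p = 0.756). MRPL12 read 93.4 and 94.9 FPKM with DMSO against 81.9 and 70.3 with EPZ (-0.31 ± 0.12, adjusted p = 0.756). In all 3 genes both EPZ libraries were below both DMSO libraries. Without DMSO replicate 1 MRPS26 was at -0.25, and without EPZ replicate 2 MRPL12 was at -0.20.

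In the other direction, MRPL33, a small protein of the large subunit with a bacterial relative, read 56.5 and 76.6 FPKM with DMSO against 79.2 and 92.0 with EPZ (0.37 ± 0.16 SE, n = 2 each, adjusted p = 0.756). The gap between its DMSO replicates exceeded the gap between DMSO replicate 2 and the lower EPZ library. MRPS5, which lies near the entry of the messenger RNA channel, read 38.9 and 37.7 FPKM with DMSO against 45.6 and 42.9 with EPZ (0.21 ± 0.11, adjusted p = 0.756). Counting its protein-coding transcripts alone turned the direction, to -0.12 ± 0.16 (adjusted p = 0.852). MRPS31 read 11.9 and 16.5 FPKM with DMSO against 17.5 and 17.4 with EPZ (0.31 ± 0.17, adjusted p = 0.756). Its value was 0.07 without DMSO replicate 1 and 0.54 without DMSO replicate 2, and that of MRPL33 0.15 and 0.59.

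Precision limits this comparison. The 95% interval lay within 1 log2 unit of 0 for all 78 members but within 0.5 for only 54, and the widest reached -0.87 and 0.75. Without DMSO replicate 2, 5 members rose and 8 fell, in a fit where 12% of all genes were called and the lone DMSO library was assumed to vary like EPZ. The 5 were MRPL33, MRPS31, MRPS33, MRPS35 and MRPS36, and the 8 were MRPS12, MRPL11, MRPS11, MRPS2, MRPL34, MRPS26, MRPL55 and MRPL38. Without any of the other 3 libraries 0 members were called.

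**Figure D3:**
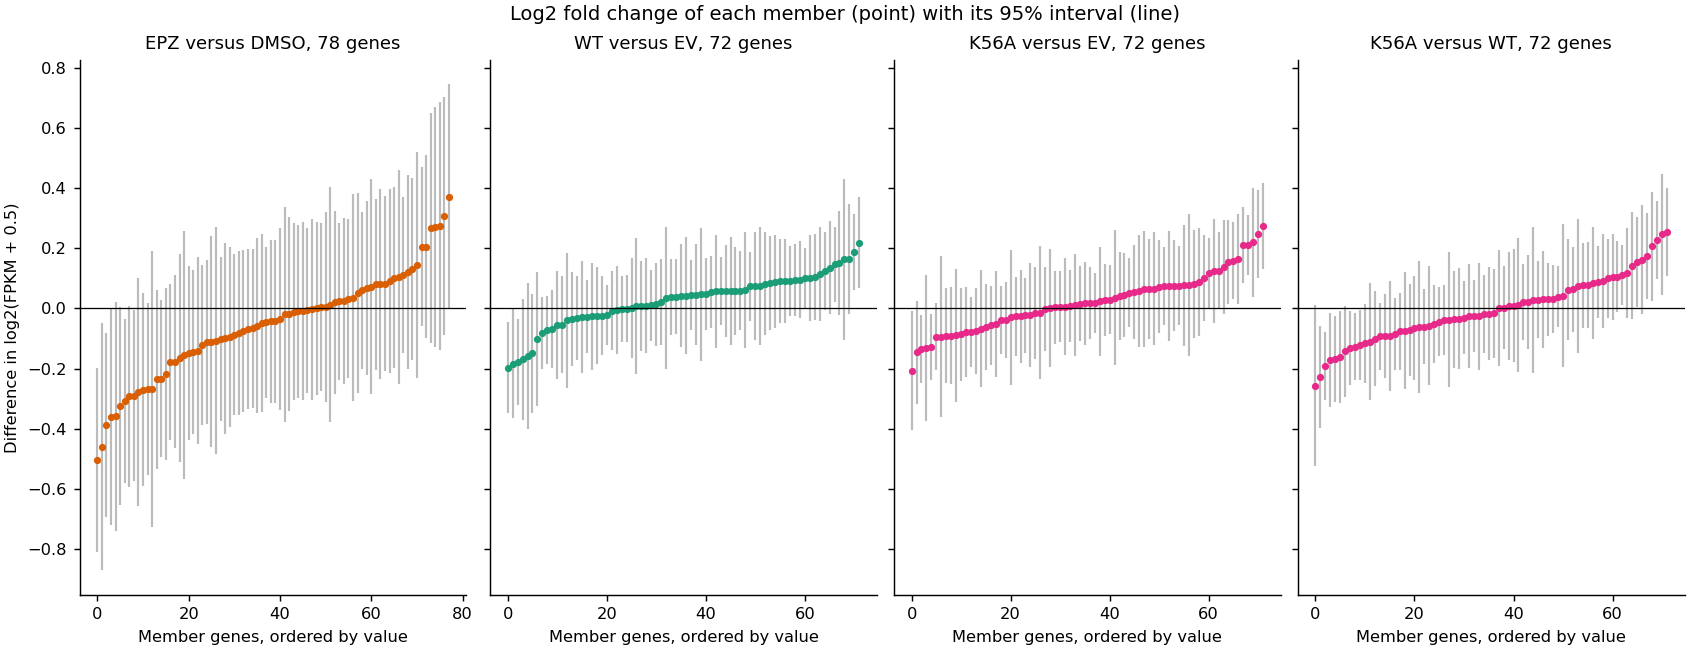
Difference in log2(FPKM + 0.5) of each member tested (points) with its 95% interval (lines), in the 4 comparisons, genes ordered by value within each panel. Intervals are widest for EPZ versus DMSO, where they reach -0.87 and 0.75, and 0 members pass in any panel.

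WT cells, given wild-type CDK9, were next compared with EV. CDK9 RNA stood at 3060 and 2976 FPKM in WT, far above the 37.6 to 43.9 of cells without the shRNA, in tables scaled separately. The comparison is therefore not a return to the level before knockdown. DOT1L also rose in WT (0.78 ± 0.04 SE, n = 2 each, limma adjusted p = 0.000167). CDK9 is a kinase that lets paused RNA polymerase II move on into the gene body. Of 72 members tested, 0 rose and 0 fell, beside 62 of 11528 genes (0.538% called, 0.0781% that rose and 0.46% that fell). The median log2 fold change was 0.04, against 0.01 over all genes, and members ran from -0.20 to 0.22. An unadjusted p under 0.05 was found for 7 members (9.72%, against 13.5% of all genes). The groups did not overlap for 28 (38.9%, against 43.5%), of which 21 were higher in WT (29.2%, against 22.6%) and 7 lower (9.72%, against 20.9%). All 72 intervals (95%) lay within 0.5 log2 units of 0.

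The smallest p-values for higher levels in WT were those of MRPL21, MRPS33 and MRPL47. MRPL21, a large-subunit protein of bacterial descent, stood at 31.4 and 32.1 FPKM in EV and 34.9 and 37.7 in WT (0.19 ± 0.05 SE, n = 2 each, adjusted p = 0.195). MRPS33, a mitochondria-specific small-subunit protein, stood at 20.7 and 22.7 FPKM in EV and 25.8 and 24.9 in WT (0.22 ± 0.07, adjusted p = 0.205). MRPL47, relative of a bacterial protein at the exit of the peptide tunnel, stood at 23.0 in both EV libraries and 26 and 25.1 in WT (0.15 ± 0.05, adjusted p = 0.286). None of these passed, although in each the WT libraries lay above the EV libraries.

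Among lower levels in WT, MRPL15, a large-subunit protein of bacterial descent, stood at 25.5 and 24.1 FPKM in EV and 22.1 and 21.1 in WT (-0.20 ± 0.07 SE, n = 2 each, adjusted p = 0.246). MRPS11, of the small subunit's platform, stood at 18.1 and 17.6 FPKM in EV and 16.2 and 15.3 in WT (-0.18 ± 0.06, adjusted p = 0.261). MRPL54, specific to mitochondria, stood at 17.4 and 15.6 FPKM in EV and 14.3 and 14.6 in WT (-0.18 ± 0.08, adjusted p = 0.361). MRPL54 was at -0.10 without EV replicate 1 and at -0.26 without EV replicate 2. These 3 differences also missed the threshold, with no overlap between the groups.

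The third comparison set K56A against EV, and it shares the EV libraries with the second. Again 0 of 72 members rose and 0 fell, beside 91 of 11528 genes (0.789% called, 0.191% that rose and 0.599% that fell). The median log2 fold change was 0.02, against 0.03 over all genes, with members between -0.21 and 0.27. An unadjusted p under 0.05 was found for 11 (15.3%, against 15.1%), and the groups did not overlap for 30 (41.7%, against 45.5%), 20 with K56A higher (27.8%, against 27.6%) and 10 with K56A lower (13.9%, against 18%). All 72 intervals lay within 0.5 log2 units of 0.

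MRPL12 came closest to the threshold of any member in the 4 comparisons (ENSG00000262814, chromosome 17, 81703367 to 81707517, plus strand). Besides its place in the ribosomal stalk, its protein is known to bind the mitochondrial RNA polymerase. It stood at 63.5 and 63.0 FPKM in EV and 72.4 and 74.3 in K56A (0.21 ± 0.04 SE, n = 2 each, adjusted p = 0.0831). WT lay between them, at 66.4 and 69.3 FPKM. When only genes of at least 5 FPKM were tested, the same difference passed (adjusted p = 0.0462, and 0.0462 to 0.322 over the alternatives). With GC and length trends removed its value was 0.12.

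MRPL41, a mitochondria-specific large-subunit protein, stood at 27.9 and 29.7 FPKM in EV and 36.5 and 33.4 in K56A (0.27 ± 0.06 SE, n = 2 each, adjusted p = 0.106). MRPS26 stood at 22.8 and 25.1 FPKM in EV and 29.2 and 27.9 in K56A (0.25 ± 0.06, adjusted p = 0.138). Neither passed, and in both the K56A libraries were the higher ones. Over the alternatives the value of MRPL41 ran from 0.11 to 0.34 and that of MRPS26 from 0.17 to 0.31. On the lower side were MRPS23, a mitochondria-specific small-subunit protein (47.1 and 47.4 FPKM in EV, 42.9 and 43.1 in K56A, -0.13 ± 0.05, adjusted p = 0.268), MRPL3 and MRPL30. MRPL3, a large-subunit protein of bacterial descent, stood at 47.7 and 47.6 FPKM in EV and 42.5 and 44.7 in K56A (-0.13 ± 0.05, adjusted p = 0.277). MRPL30, likewise, stood at 13.9 and 14.3 FPKM in EV and 12.7 and 11.6 in K56A (-0.21 ± 0.09, adjusted p = 0.316).

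**Figure D4:**
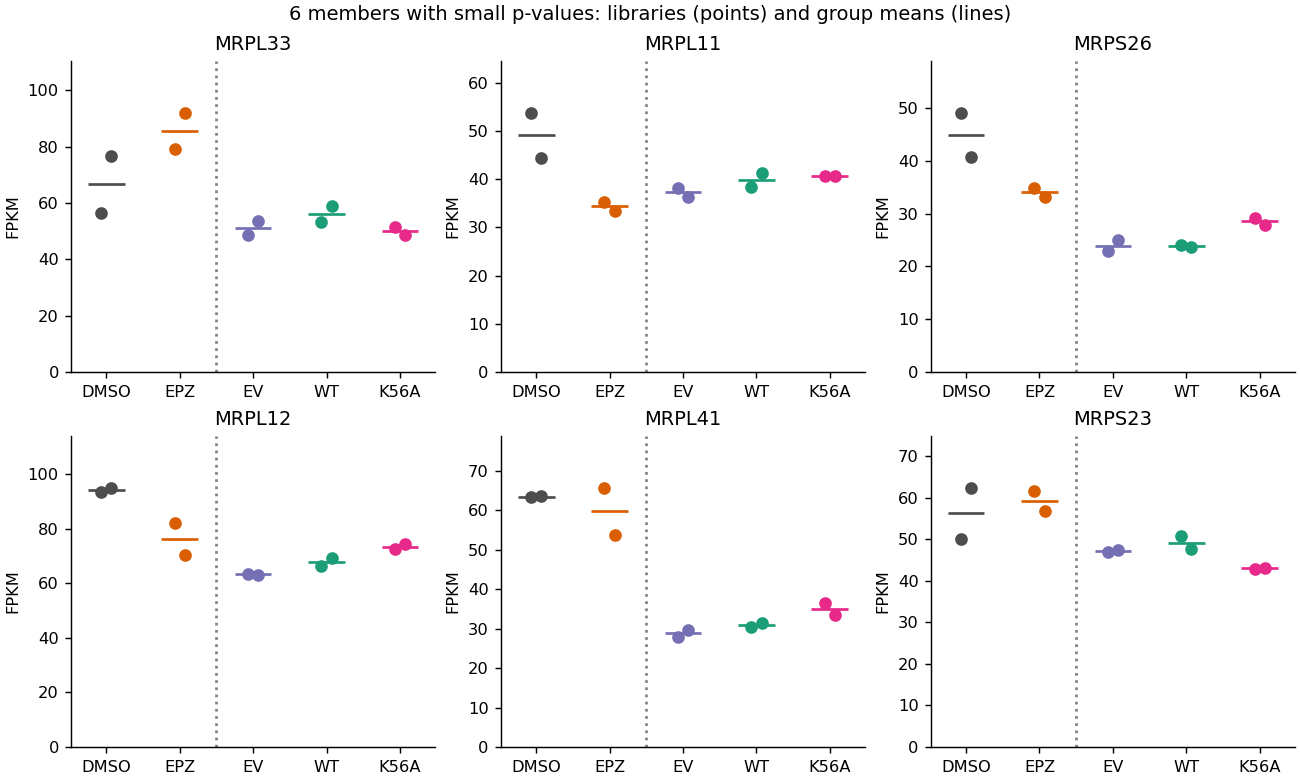
FPKM of 6 members in each library (points) with group means (lines), vertical axes from 0, the experiments parted by a dotted line. MRPS26 lies at 40.7 to 49.1 FPKM in DMSO, at 33.2 to 34.9 in EPZ and at 27.9 to 29.2 in K56A against 22.8 to 25.1 in EV and WT, and 0 of these differences pass.

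K56A was also set against WT directly. Of 72 members, 0 rose and 0 fell, beside 7 of 11528 genes (0.0607% called, 0.0173% that rose and 0.0434% that fell). The median log2 fold change was -0.02, against 0.01 over all genes, and members lay between -0.26 and 0.25. An unadjusted p under 0.05 was found for 15 members (20.8%, against 13% of all genes). The groups did not overlap for 40 (55.6%, against 45.4%), 19 with K56A higher (26.4%, against 25.9%) and 21 with K56A lower (29.2%, against 19.5%). The intervals of 71 of 72 members lay within 0.5 log2 units of 0, the exception being MRPS36, and the widest reached -0.52 and 0.45.

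MRPL4, whose bacterial relative lines the peptide tunnel, stood at 50.2 and 51.2 FPKM in WT and 62.2 and 56.8 in K56A (0.23 ± 0.06 SE, n = 2 each, adjusted p = 0.172). MRPS26 stood at 24.0 and 23.6 FPKM in WT, near its EV level, and at 29.2 and 27.9 in K56A (0.25 ± 0.06, adjusted p = 0.172). Over the alternatives the value of MRPL4 ran from 0.10 to 0.29 and that of MRPS26 from 0.13 to 0.29. MRPL34, a large-subunit protein of bacterial descent, stood at 25.4 and 30.9 FPKM in WT and 32.9 and 33.8 in K56A (0.25 ± 0.09, adjusted p = 0.296). Its WT replicates were further apart than the group means, and its value was 0.11 without WT replicate 1 and 0.39 without WT replicate 2. Lower in K56A, without passing, were MRPS23 (50.7 and 47.7 FPKM in WT, 42.9 and 43.1 in K56A, -0.19 ± 0.05, adjusted p = 0.179), MRPS6 and MRPL49. MRPS6, a small-subunit protein of bacterial descent, stood at 15.0 and 16.0 FPKM in WT and 12.6 and 13.7 in K56A (-0.23 ± 0.07, adjusted p = 0.273). MRPL49, specific to mitochondria, stood at 24.4 and 26.3 FPKM in WT and 21.8 and 23.2 in K56A (-0.17 ± 0.06, adjusted p = 0.312).

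Over the 3 knockdown lines, the highest group mean exceeded the lowest by a median of 1.07-fold, by less than 1.2-fold in 75 of 78 genes, and by at most 1.21-fold. Over all 11528 genes tested the median was 1.11-fold, and 79.6% lay under 1.2-fold, beside 70 of the 72 members tested (97.2%). These genes were not matched to the members for level, and they include genes near 1 FPKM. In the knockdown fit the median SE was 0.065 for the members and 0.084 over all genes. The widest ranges were those of MRPL41 (1.21-fold), MRPL13 (1.21), the reassigned MRPS36 and MRPS26 (both 1.2) and MRPL34 (1.18). MRPL13 stood at 29.6 and 28 FPKM for EV, 33.2 and 30.5 for WT, then 26 and 26.6 for K56A, with no overlap between K56A and the others. Its WT values include a retained-intron transcript at 3.20 and 3.79 FPKM, listed at 0 in both EV libraries. The range of MRPL13 rests in part on that transcript. MRPL13 is among 6 members left out of the knockdown tests, with MRPL28, MRPL48, MRPL55, MRPL58 and MRPS28. The reason was the share of a group's FPKM in transcripts listed in only 1 of the knockdown tables. In the group where it was largest, this share was 6.53% to 14.1%. When every transcript was summed, all 78 were tested, and 0 rose and 0 fell in each of the 3 comparisons.

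By part of the ribosome, with EPZ the median log2 fold change was -0.02 for the small subunit and -0.05 for the large subunit, and -0.05 for members with a bacterial relative and -0.02 for those specific to mitochondria. In WT versus EV the 2 subunits had medians of 0.04 and 0.04, in K56A versus EV 0.03 and 0.02, and in K56A versus WT 0.03 and -0.02. MRPS18A, the large-subunit protein with a small-subunit symbol, stood at 38.5 and 28.9 FPKM in DMSO, 32.9 in both EPZ libraries, and 18.9 to 22.2 in the knockdown libraries. MRPS30 stood at 33.2 to 38.7 FPKM in the inhibitor libraries and at 27.6 to 34.3 in the knockdown libraries.

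For contrast, the 80 cytosolic ribosomal protein genes tested in the knockdown fit, which encode the ribosome of the cytosol, had a median of 0.11 in WT versus EV with 76 above 0, and 1 rose. The mitochondrial set had 47 of 72 above 0 in that comparison (65.3%, against 52.6% of all genes). In K56A versus WT, 65 of 80 cytosolic and 37 of 72 mitochondrial ribosomal protein genes lay below 0, with medians of -0.06 and -0.02. This difference between the sets was not tested.

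Other genes of mitochondrial translation gave no calls either. Of 5 ribosomal proteins with other names (such as DAP3, PTCD3 and AURKAIP1), 0 rose and 0 fell in any of the 4 comparisons, and the same count held for 25 genes of ribosome assembly and ribosomal RNA modification, 17 translation factors, 22 mitochondrial aminoacyl-tRNA synthetases and related enzymes, and 14 genes of mitochondrial DNA transcription and replication. With EPZ, 25, 16, 22 and 14 of the last 4 lists were tested, and in the knockdown fit 18, 13, 18 and 12. The smallest p-values among them in K56A versus EV were those of TOP1MT, the mitochondrial topoisomerase (0.22 ± 0.06, adjusted p = 0.161), and SSBP1, which binds single-stranded mitochondrial DNA (-0.15 ± 0.05, adjusted p = 0.226). In WT versus EV they were SARS2 (-0.21 ± 0.05, adjusted p = 0.116) and MTG2, an assembly GTPase (-0.23 ± 0.07, adjusted p = 0.194), and with EPZ the first of the synthetases was LARS2, which charges the mitochondrial leucine tRNA (-0.41 ± 0.17, adjusted p = 0.756). None of these passed.

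Of 10 transcription factors and coactivators of mitochondrial biogenesis tested in the knockdown lines, 1 rose in K56A versus EV. It was MYC, which binds the E-box, at 104.3 and 105.6 FPKM for EV, 114.5 and 108.6 for WT, then 128.2 and 122.7 for K56A (0.26 ± 0.04 SE, n = 2 each, adjusted p = 0.0477). This call was lost in 14 of 18 alternatives, with adjusted p from 0.0200 to 0.286, among them leaving out any 1 of the 6 libraries. PPRC1, a coactivator related to PGC-1, stood at 53.1 and 50.9 FPKM in EV and 62.5 and 58.7 in K56A (0.22 ± 0.05, adjusted p = 0.109). With EPZ, 0 of 11 passed and 1 lay above 0, and the smallest p-values were those of GABPA, the ETS factor (6.75 and 8.47 FPKM in DMSO, 10.9 and 10.5 in EPZ, 0.48 ± 0.16, adjusted p = 0.756), and ESRRA (31.0 and 25.3 in DMSO, 21.9 and 19.5 in EPZ, -0.43 ± 0.15, adjusted p = 0.756).

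Calls were found among the messenger RNAs that this ribosome translates. Of the 13 protein-coding genes of the mitochondrial genome, 7 fell in K56A versus EV, against 0.599% of all genes tested. They were MT-ND1, MT-ND2, MT-ND4, MT-ND5, MT-ND6, MT-CO3 and MT-ATP6. All 13 lay below 0, and the median was -0.17, beside 0.02 for the members. The difference between the sets was not tested. The 13 genes are not independent, so their calls do not count as separate results. Genes of the mitochondrial genome held 27.8% and 27.5% of all FPKM in EV and 25.3% and 25.4% in K56A. In WT they held 27.7% and 27.1%. MT-ND5, a subunit of complex I, read 3304 and 3194 FPKM with EV against 2515 and 2512 with K56A (-0.37 ± 0.03 SE, n = 2 each, adjusted p = 0.00102), with 3013 and 2984 in WT. MT-ATP6, a subunit of ATP synthase, read 16408 and 16085 FPKM with EV against 13979 and 13983 with K56A (-0.22 ± 0.02, adjusted p = 0.0114). In K56A versus WT, 2 of 13 fell, MT-ATP6 and MT-ND5 (both adjusted p = 0.0296), against 0.0434% of all genes tested. The median of the 13 was -0.15.

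The 2 ribosomal RNAs of the mitochondrial ribosome had lower values in K56A without passing. MT-RNR2, the RNA of the large subunit, stood at 6117 and 6033 FPKM for EV, 6565 and 6284 for WT, then 5714 and 5737 for K56A. Its log2 fold change was -0.17 ± 0.03 against WT (SE, n = 2 each, adjusted p = 0.108) and -0.09 ± 0.03 against EV (adjusted p = 0.198). The number of mitochondrial messenger RNAs that fell depended on the fit, at 0 to 8 over the alternatives in K56A versus EV and 0 to 7 in K56A versus WT. Leaving out WT replicate 1 or WT replicate 2 left 3 in the former, and leaving out K56A replicate 1 or K56A replicate 2 left 1. In the latter, leaving out EV replicate 1 or EV replicate 2 gave 7 and leaving out any of the 4 libraries compared gave 0.

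**Figure D5:**
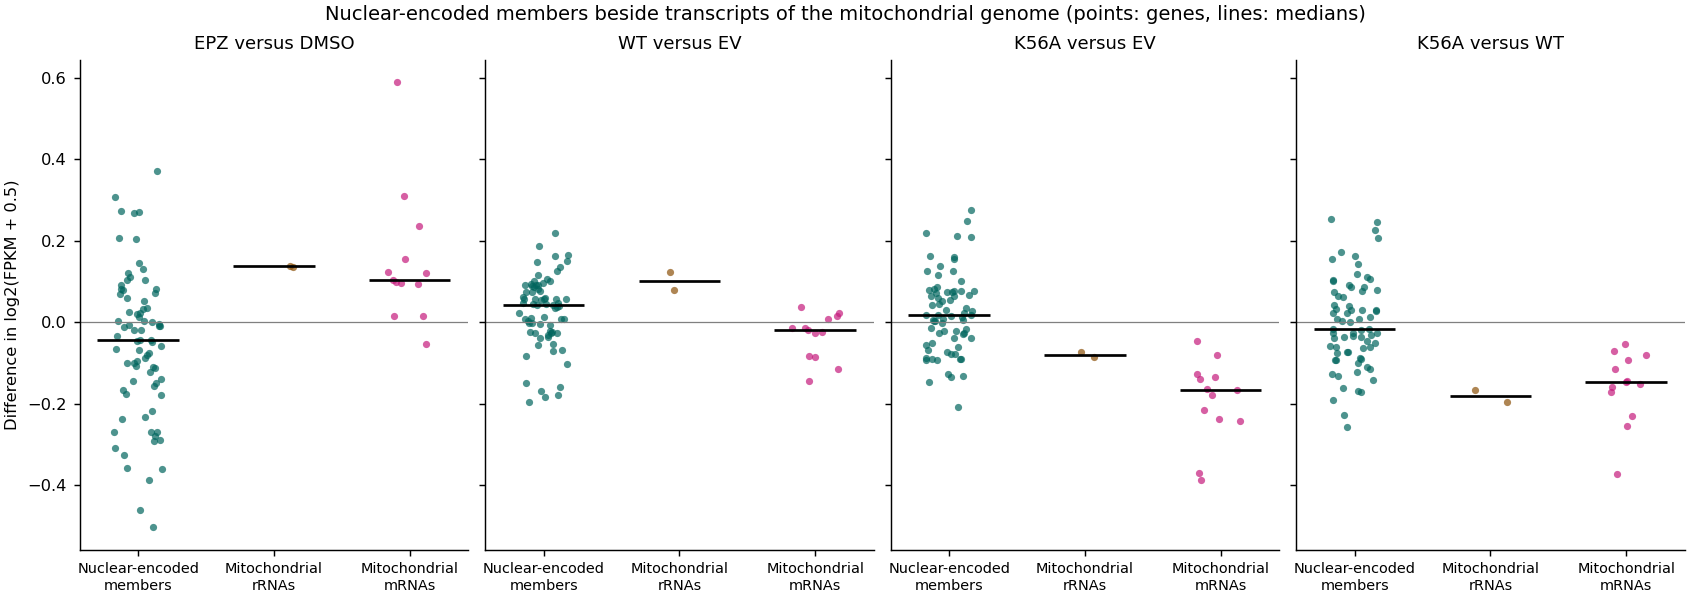
Difference in log2(FPKM + 0.5) for the members tested, the 2 mitochondrial ribosomal RNAs and the 13 messenger RNAs of the mitochondrial genome, a point for each gene and a line for the median. In K56A versus EV the medians are 0.02, -0.08 and -0.17, and in K56A versus WT -0.02, -0.18 and -0.15.

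Most of the members' RNA was of the protein-coding type. Coding transcripts held 88.2% to 89.5% of the members' FPKM in the inhibitor libraries and 82.6% to 83.4% in the knockdown libraries. Retained-intron transcripts held 4.20% to 5.10% in the former and 8.21% to 8.78% in the latter, and over all protein-coding genes these shares were 6.20% to 6.48% and 9.89% to 10.5%. The groups within each experiment lay close together in these shares. The largest shares outside coding transcripts were those of 3 members, MRPS5 with 89.2% in the inhibitor and 94.6% in the knockdown libraries, MRPS11 with 83.8% and 89.7%, and MRPL42 with 64.7% and 63.8%. In MRPL11 they were 48.3% and 51%, in MRPS25 44.2% and 50.8%, and in MRPL17 60.4% and 58%. Among the 5 members with the highest level, they were 16.7% and 44.6% in MRPL38 and 43.5% and 50.4% in MRPS34. For MRPS5, MRPS11, MRPL42 and MRPL17 the summed level is mainly that of transcripts of other types in both experiments. In the inhibitor libraries alone this also held for MRPS14 (62.3%, and 33.4% in the knockdown libraries) and MRPL30 (54.8%, and 44.1%). In the knockdown libraries alone it held narrowly for MRPL11, MRPS25, MRPS34 and MRPL55 (50.8%). The places of MRPL38 and MRPS34 in the order of levels also count such transcripts.

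The authors tested single transcripts. For the inhibitor, the authors' deposited table called 2 of 278 member transcripts (0.719%, against 1.19% of 62929). In the authors' deposited table of WT versus EV, 7 of 316 passed (2.22%, against 3.33% of 72555), and in that of K56A versus EV, 5 of 324 (1.54%, against 3.80% of 74761). These differences in share were not tested. In the authors' deposited table of K56A versus EV, a coding transcript of MRPL36 was listed at 7.96 and 6.98 FPKM in EV and at 0 in both K56A libraries (adjusted p = 2.1e-08). The gene sum of MRPL36, a large-subunit protein of bacterial descent, was 21.7 and 21.8 FPKM in EV and 19.6 and 21.2 in K56A, so the gene's total moved far less than this transcript. A transcript of MRPS7 of the nonsense-mediated decay type was listed at 0 and 0.0930 FPKM in EV and at 4.58 and 4.88 in K56A in the authors' deposited table (adjusted p = 2.3e-09). In the authors' deposited table of WT versus EV it stood at 3.99 and 2.90 FPKM in WT (adjusted p = 1.3e-06). Both tables use the same EV libraries. The gene sum of MRPS7, a small-subunit protein of bacterial descent, was 25.2 and 23.7 FPKM for EV, 26.5 and 25.6 for WT, then 26.4 and 28.1 for K56A.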

How the data were processed

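The authors deposited 3 tables of 4 libraries each, with FPKM per transcript: DMSO with EPZ, EV with WT, and EV with K56A. GRCh38 and, with no roles stated, DESeq2 1.32.0, RSEM 1.3.3, STAR 2.7.1a and Trim Galore 0.6.6 are named in the submitters' processing notes. Whether counting used strand is not given in the sources used here. Antisense partners and near-identical pseudogenes may therefore share reads with a member. The authors also deposited, for each transcript, log2 fold changes with a p-value and its adjusted value, which per the file headers come from edgeR (inhibitor table) and DESeq2 (knockdown tables), and were used only to describe their calls. A transcript is listed only where at least 2 of a table's 4 libraries are above 0. Another 4 columns of group summaries were not used. The tables hold no counts, so depth is unknown and intervals rest on the spread between replicates alone.

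FPKM were summed per gene. EV stands in both knockdown tables, differing by a constant factor (1.0007 and 1.0006), so the K56A libraries were multiplied by the mean factor, and the 69086 transcripts in both tables were summed. Genes with more than 5% of a group's FPKM in transcripts of only 1 table were left out of the knockdown fit. A gene entered a fit if 2 or more libraries reached 1 FPKM. The test was limma 3.58.1 in R 4.3.3 (two-sided, intensity trend) on log2(FPKM + 0.5), Benjamini-Hochberg adjusted at 0.05 over all genes: 13130 in the inhibitor fit of 4 libraries and 11528 in the knockdown fit of 6. Fold changes are on that scale, which understates changes of low genes. The fit was also run on simulated data with shifts larger than most member differences. That run does not show whether differences of the members' size would be found.

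The members, lists and tests were chosen with earlier results of these data known. Named members are, for each comparison, those that passed or otherwise the 3 smallest p-values in each direction, then the 5 highest and 5 lowest means, the 5 widest ranges among knockdown lines, the 3 largest shares outside coding transcripts, and MRPS18A, MRPS30 and MRPS36. MRPS25, MRPS18B, MRPL17, MRPL36, MRPS7 and the head-to-head pairs were picked after their values were seen. Promoters are RefSeq (GRCh38.p14). Of the 78 members 69 matched, and those without an entry are MRPL2, MRPL10, MRPL13, MRPL15, MRPL21, MRPL23, MRPL35, MRPS28 and MRPS36.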

Additional observations from a re-analysis of the deposited data

How the results depend on the processing

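Counts of members that rose or fell, and their median log2 fold changes, moved by less than the limits set (1.5 times a count, 1 SD for a median) in 192 of 196 recalculations over the 4 comparisons: other pseudocounts and filters on low values, median ratio scaling, scaling to nuclear genes, no intensity trend, coding transcripts only, GC and length trends removed, fewer or more libraries and transcripts, and each replicate left out. The exceptions were these. With EPZ, without DMSO replicate 2, 5 rose and 8 fell, so that leaving out one library gave 0 to 5 and 0 to 8, and the median ran from -0.06 to -0.04 (-0.0833 with GC and length trends removed). In K56A versus EV, 1 member rose when genes of at least 5 FPKM were tested. The median of the members changed sign in K56A versus EV (-0.0039 to 0.04) and in K56A versus WT (-0.03 to 0.01). It stayed above 0 in WT versus EV (0.02 to 0.05). Both changes of sign lay within the limit for a median, so that limit says nothing about the direction of medians near 0. The 24 named member results were picked for small p-values in these same data, and their groups did not overlap. Leaving out a library could therefore not turn their direction, and few genes passed in most fits. The counts that follow are thus no measure of robustness. Of 408 recalculations for the 24 named member results, 402 kept direction and side of the threshold, 5 passed it and 1, MRPS5 with EPZ, turned to -0.12. The share of all genes called ran from 0% to 12% with EPZ, 0.00867% to 1.76% for WT against EV, 0.0347% to 2.18% for K56A against EV and 0% to 0.283% for K56A against WT.

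The labels do not say that a replicate number marks a shared source, so the numbers were not used to pair libraries. The correlation of replicate differences was 0.245 for DMSO and EPZ, above the limit of 0.1, which 1 pair of groups with 2 replicates cannot settle, and 0.034 for EV and WT, -0.015 for EV and K56A and -0.033 for WT and K56A. With the replicate block, 0 members rose and 0 fell in each of the 4 comparisons. With 2 libraries a group and no counts, depth cannot be set against the spread, and differences smaller than the intervals given were not detectable. The results on MYC and on mitochondrial messenger RNAs were added to the recalculations after seeing the data.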
